A study of Mus musculus with 63 samples.

Results

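Basigin, the lactate shuttle and glycolysis were followed through 10 genes, Bsg, Slc16a1, Slc16a7, Slc2a1, Slc2a3, Ldha, Ldhb, Hk1, Pkm and Pfkfb3, out of 55291 gene symbols in the count tables. The genes were selected on measured values of these data, because the counts of Bsg were higher in lesioned than in control wildtype CA3 libraries, and the other 9 were then taken by name. The wildtype CA3 contrast is therefore given as a description without a test for any of the 10 genes. All 10 genes passed the filter on low counts in each of the 16 comparisons that were tested.

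The RNA came from organotypic tissue cultures that keep the entorhinal cortex connected to the hippocampus, cut from mouse pups of either sex at postnatal days 3 to 5 and matured for at least 18 days in vitro. Wildtype cultures were C57BL/6J (Synpo+/+). The second genotype was B6.129-Synpotm1Mndl/Dllr (Synpo-/-), in which synaptopodin, an actin-binding protein of the spine apparatus, is deficient. In entorhinal cortex lesion (ECL), a scalpel cut severs the perforant path, the main excitatory input to the outer dendrites of the dentate gyrus (DG), while control cultures were left uncut. The regional ECL libraries were taken 3 days after the lesion, and the time for the whole-culture ECL libraries is not given in the sources used here.

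In the regional experiment, each of 39 libraries held 1 DG or 1 CA3 area dissected by scalpel from 1 culture. Wildtype CA3 had 2 control and 3 ECL libraries, and wildtype DG had 4 control and 7 ECL libraries. CA3 labelled Synpo-/- had 6 control and 6 ECL libraries, and DG labelled Synpo-/- had 7 control and 4 ECL libraries. In the co-immunoprecipitation (coIP) experiment, each of 24 libraries came from a lysate of 5 to 6 pooled cultures. An antibody against synaptopodin was used for the pull-down, and the RNA recovered with it was sequenced. Precleared lysate of the same preparation served as input. There were 5 input and 5 coIP libraries from control wildtype cultures, 5 and 5 from ECL wildtype cultures, and 2 and 2 from cultures labelled Synpo-/-, for which the labels give no lesion state. The labels number the Synpo-/- inputs in 2 ways that are crossed, and inputs and coIP libraries were paired here by the preparation name. The labels do not say whether cultures came from separate animals, so p-values measure the spread between cultures or pools, and in such bulk tissue fewer cells of a type and less RNA per cell cannot be told apart.

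Glycolysis turns glucose into pyruvate, and lactate dehydrogenase interconverts pyruvate and lactate. Monocarboxylate transporters carry lactate across membranes, and basigin is the chaperone that brings several of them to the cell surface. In brain tissue, astrocytes are known for strong glycolysis and lactate release and neurons for lactate uptake, an exchange called the astrocyte to neuron lactate shuttle.

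Library totals ran from 14055930 to 46043990 counts in the regional experiment and from 11601154 to 53682143 in the coIP experiment. Synpo was measured in every library and did not fall with the genotype label. It lay at 19.1 to 38.4 normalised counts scaled to library size (CPM) in wildtype regional libraries and at 30.5 to 69.3 CPM in those labelled Synpo-/-, so the Synpo-/- libraries are named by their label throughout. Region was checked by Prox1, a granule cell gene, and Grik4, a kainate receptor subunit of CA3 pyramidal cells. One library stood apart. Wildtype DG ECL replicate 5 had 15.5 CPM of Prox1 against a range of 170 to 217 CPM in the other 6 libraries of its group, and 28.2 CPM of Grik4 against 7.66 to 12.5 CPM, values in the range of the CA3 libraries. For the members in wildtype DG, values without it are given beside those with it where a fitted difference is given.

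All 10 genes are protein coding, are given here on GRCm38, and were counted over all their exons. Bsg spans chr10:79704491-79711969 on the plus strand, with 1814 exonic bases. Of the lactate carriers, Slc16a1 spans chr3:104638668-104658462 on the plus strand and Slc16a7 spans chr10:125219270-125389465 on the minus strand. Of the glucose transporters, Slc2a1 spans chr4:119108711-119137983 on the plus strand and Slc2a3 spans chr6:122727809-122801640 on the minus strand. Ldha spans chr7:46841475-46855627 on the plus strand and Ldhb spans chr6:142490249-142507957 on the minus strand. Hk1 spans chr10:62268855-62379908 on the minus strand, Pkm spans chr9:59656368-59679375 on the plus strand and Pfkfb3 spans chr2:11471433-11554077 on the minus strand. Reads were counted without strand, and 4 of these genes overlap another annotated gene (Slc16a7 with Gm47862, Slc2a1 with Gm12868, Hk1 with Hk1os and Pkm with Gm49759), so that reads in the shared stretch cannot be assigned to either partner by direction.

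Promoter sequence is shown for 3 genes whose levels differed between control and lesioned DG in the libraries labelled Synpo-/-. Each window is the 250 bases before the start annotated by RefSeq (GRCm38.p6), read 5′ to 3′ on the strand of the gene. The gene spans given above are from GENCODE, and the RefSeq starts of Slc2a1 and Pfkfb3 used here lie inside those spans. Capitals mark the letters ACGTG on either strand, the core bound by hypoxia-inducible factors, and CACGTG, the E-box, which holds ACGTG on both strands and counts there as overlapping matches. The first is the start of the lactate carrier Slc16a1 at chr3:104638414-104638663, the second that of the glucose transporter Slc2a1 at chr4:119108495-119108744, both on the plus strand, and the third the upstream start of the glycolytic regulator Pfkfb3 at chr2:11553930-11554179 on the minus strand.
Slc16a1: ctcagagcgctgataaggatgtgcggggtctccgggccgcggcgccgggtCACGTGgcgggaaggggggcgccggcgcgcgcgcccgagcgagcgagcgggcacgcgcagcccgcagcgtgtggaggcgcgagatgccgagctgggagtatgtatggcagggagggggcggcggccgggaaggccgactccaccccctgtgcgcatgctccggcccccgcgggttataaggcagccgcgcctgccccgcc
Slc2a1: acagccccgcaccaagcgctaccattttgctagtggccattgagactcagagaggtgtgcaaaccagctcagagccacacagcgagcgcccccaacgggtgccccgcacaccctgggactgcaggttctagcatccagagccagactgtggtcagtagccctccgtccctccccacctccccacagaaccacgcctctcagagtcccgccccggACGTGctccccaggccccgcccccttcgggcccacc
Pfkfb3: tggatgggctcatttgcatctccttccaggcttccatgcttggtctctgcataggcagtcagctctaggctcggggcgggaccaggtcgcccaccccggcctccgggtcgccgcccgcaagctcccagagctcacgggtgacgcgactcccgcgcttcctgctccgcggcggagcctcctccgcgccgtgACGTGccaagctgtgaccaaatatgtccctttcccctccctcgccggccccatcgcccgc
The E-box of Slc16a1 begins 200 bases before its RefSeq start, while the ACGTG matches of Slc2a1 and Pfkfb3 begin 36 and 60 bases before theirs. By the GENCODE spans, the Pfkfb3 match lies inside the gene and the Slc2a1 match crosses the edge of the gene. A downstream start of Pfkfb3 and the first listed start of Ldha also held the letters CACGTG, and none of the windows listed for Ldhb and Hk1 held ACGTG. Among all 32851 promoters of the same length, 16.6% held ACGTG and 6.02% held CACGTG. A match describes the letters of the window and not a bound site. The promoters of Bsg, Slc16a7 and Slc2a3 were not analysed here.

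Levels of different genes were compared per length, as CPM per kilobase of exon (RPKM). In the 39 regional libraries Ldhb, the dehydrogenase subunit of tissues that oxidise lactate, had the highest mean level at 428 ± 81.2 RPKM (SD, n = 39 libraries of all groups). Bsg followed, with group means from 182 RPKM in wildtype CA3 controls to 461 RPKM in wildtype CA3 after ECL, then Ldha, the subunit of tissues that make lactate, at 119 ± 30.1 and Pkm, pyruvate kinase, at 88.3 ± 25.1. Ldhb exceeded Bsg in 36 of 39 libraries, and each of the next 3 steps down to Slc2a3, the neuronal glucose transporter GLUT3, held in 39 of 39. The lower levels were 18.8 ± 4.17 RPKM for Slc2a3, 15.3 ± 2.81 for Slc16a1 (MCT1) and 11.4 ± 2.40 for Slc2a1, the glucose transporter GLUT1 of endothelium and astrocytes. Below them came Hk1, hexokinase of neurons and glia, at 9.20 ± 2.56 RPKM, Pfkfb3 at 4.43 ± 1.12 and Slc16a7 (MCT2) at 2.90 ± 0.374. Neighbours in this lower stretch overlapped: Slc2a3 exceeded Slc16a1 in 29 of 39 libraries, Slc16a1 exceeded Slc2a1 in 35, and Slc2a1 exceeded Hk1 in 30. With the longest transcript as the length in place of all exons, Hk1 moved from rank 8 to rank 6, at 18.4 RPKM. Ldha and Pkm kept their ranks but stood at 217 and 182 RPKM.

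Ratios within a library set partners side by side on the RPKM scale. Ldha stood at a median of 0.277 of Ldhb over the regional libraries, with a range of 0.162 to 0.415. That ratio depends on the length used, since with the longest transcript the means were 217 RPKM for Ldha and 516 for Ldhb. Slc16a7 stood at a median of 0.175 of Slc16a1. The ratio of Slc16a7 to Slc16a1 had a median of 0.262 in wildtype DG controls and 0.160 in wildtype DG ECL, and of 0.271 and 0.155 in DG labelled Synpo-/-. In both genotypes the highest ECL library (0.172 and 0.170) lay below the lowest control library (0.222 and 0.201).

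Normalised CPM are used from here on to compare 1 gene between samples, and fold changes are log2 values from edgeR's quasi-likelihood test with their standard errors and Benjamini-Hochberg adjusted p-values over all genes tested. A gene is called when the adjusted p is under 0.05.

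The lesion question was put first. In wildtype DG 1 of 10 genes was called, Slc16a1, where 12.2% of all 23720 genes tested were called. In DG labelled Synpo-/- 4 of 10 were called, Slc16a1 as higher and Slc2a1, Slc2a3 and Pfkfb3 as lower, against 8.53% of 23310 genes. In CA3 labelled Synpo-/- 0 of 10 were called by edgeR or by DESeq2, against 0.077% of 20772 genes by edgeR. An unadjusted p under 0.05 was reached there by 0 of the 10 and by 7.27% of all genes. The median log2 fold change of the 10 genes was 0.13 in wildtype DG, -0.26 in DG labelled Synpo-/- and -0.05 in CA3 labelled Synpo-/-, beside medians of 0.00, 0.01 and 0.00 over all genes. Without the library with CA3-like marker levels, the wildtype DG median was -0.07, so its sign rested on that library. In that fit 1 of the 10 genes was called higher and 1 lower, where 13.8% of 23605 genes were called. Of the wildtype DG calls over all genes, 64.6% were higher after ECL, a share that was 36.2% with the gene length trend removed and 50.2% with length and GC trends removed.

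**Figure D1:**
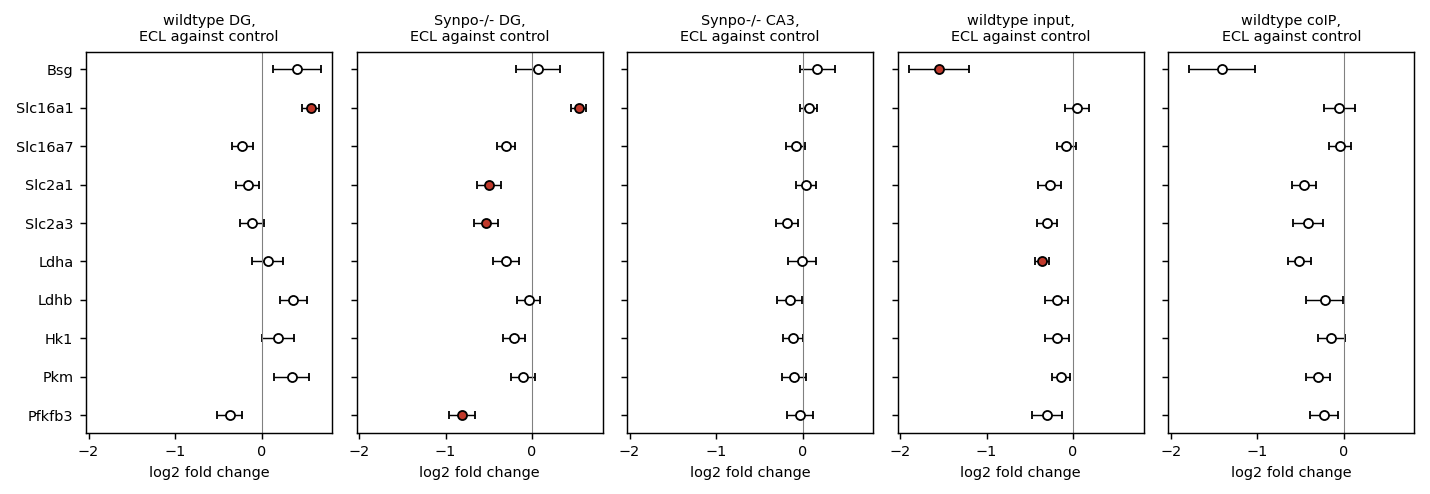
Log2 fold change, ECL against control, of the 10 genes in each tested comparison, as a point with its standard error, with filled red points for adjusted p under 0.05. Slc16a1 lies at 0.57 in wildtype DG and 0.54 in DG labelled Synpo-/-, and in whole-culture input Bsg lies furthest from 0 at -1.55.

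Bsg was the gene behind the choice, and its wildtype CA3 values are descriptive. The control libraries of wildtype CA3 held 325 and 334 CPM, and the ECL libraries held 774, 779 and 957 CPM. Every ECL library was above both controls. The fitted log2 difference was 1.24, and leaving out each of the 5 libraries in turn gave 1.13 to 1.29. With the gene length trend removed it was 0.97 and with length and GC trends removed it was 0.88, while the median over all genes was -0.14 and -0.13 in those fits and -0.01 otherwise. The same 5 libraries also differed in these trends. Short genes stood above long ones by 0.02 to 0.18 (log2) in the ECL libraries and by -0.12 to 0.00 in the controls. The part of the trends in the Bsg values was not tested beyond these fits.

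The other 9 genes in the wildtype CA3 libraries had fitted log2 differences from -0.09 for Slc16a7 to 0.62 for Pkm. Pkm held 338 and 381 CPM in the controls and 546, 576 and 656 CPM after ECL. Ldha, at a fitted difference of 0.57, held 277 and 342 CPM in the controls and 472, 480 and 533 CPM after ECL. Both genes were higher in every ECL library, and so were Bsg, Slc16a1, Slc2a1, Slc2a3 and Hk1. The groups overlapped for Slc16a7, Ldhb and Pfkfb3. How many of all genes were without overlap in these few libraries was not counted, so the separation is only a description. Fitted differences were 0.34 for Hk1 and Ldhb, 0.21 for Slc2a3, 0.18 for Slc2a1, 0.15 for Slc16a1 and 0.00 for Pfkfb3. Summed microglia markers in these libraries were 587 and 990 CPM in the controls and 1175 to 1565 CPM after ECL. Summed astrocyte markers were 4530 and 5442 CPM in the controls and 5830 to 6639 CPM after ECL. Both sums were higher in every ECL library. Whether these cell types had a part in these differences was not tested.

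The same contrast in the remaining regions did not bring Bsg past the test. In CA3 labelled Synpo-/-, Bsg ran from 301 to 847 CPM in controls (median 488, n = 6) and from 432 to 722 CPM after ECL (median 594, n = 6), with overlapping groups. The log2 fold change was 0.17 ± 0.20 (SE, adjusted p = 0.905). Its 95% interval was -0.23 to 0.57. In wildtype DG the controls held 623, 387, 474 and 256 CPM, and the 7 ECL libraries ran from 255 to 984 CPM (median 542). That difference was 0.41 ± 0.28 (adjusted p = 0.305), and without the library with CA3-like marker levels, which held the 984 CPM, it was 0.24 (adjusted p = 0.506). In DG labelled Synpo-/- the controls ran from 254 to 673 CPM (median 479, n = 7) and the ECL libraries held 493, 294, 669 and 642 CPM. The groups overlapped fully there, at 0.07 ± 0.25 (adjusted p = 0.916). The wildtype CA3 controls, at 325 and 334 CPM, lay within the range of the CA3 controls labelled Synpo-/-. All 3 wildtype CA3 ECL libraries lay above the highest CA3 ECL library labelled Synpo-/-. Those at 774 and 779 CPM lay below the highest CA3 control labelled Synpo-/-, at 847 CPM. These wildtype values are the ones behind the choice of Bsg, and the genotypes were not tested against each other in CA3.

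**Figure D2:**
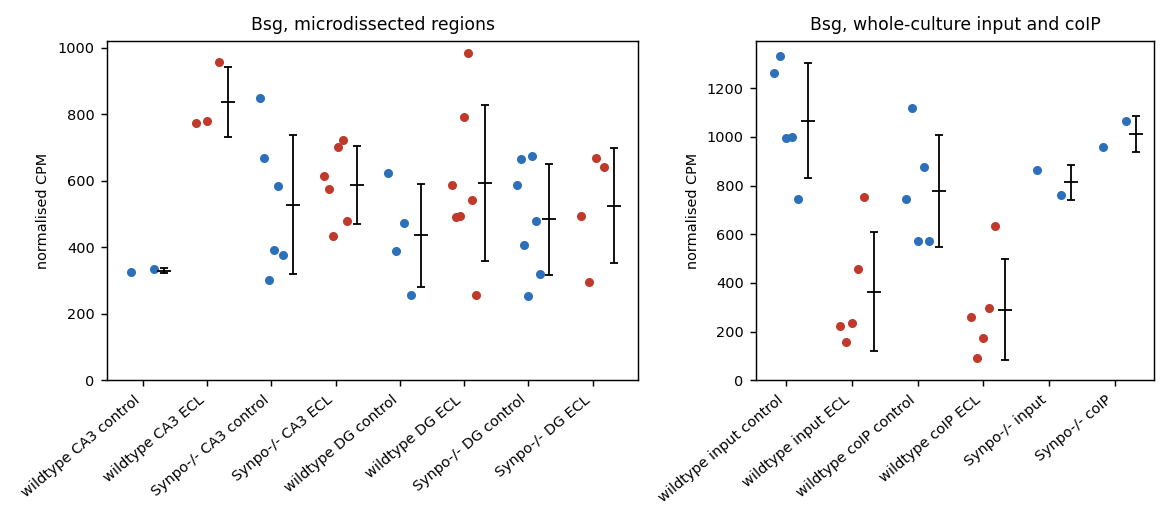
Normalised CPM of Bsg in each library (dots, blue for control cultures or undefined lesion state and red for ECL), with the mean and SD of each group in black, for the microdissected regions (left) and for input and coIP of whole cultures (right). In wildtype CA3 the ECL libraries (774 to 957 CPM) lie above the controls (325 and 334 CPM), while in wildtype input the ECL libraries run from 157 to 751 CPM and the controls from 745 to 1333 CPM.

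Bsg varied widely within groups, with a coefficient of variation of 39.6% in CA3 controls labelled Synpo-/-. Over the 39 regional libraries, the genes whose log2(CPM + 1) ran closest to that of Bsg, among 8521 genes, were Nudc, a dynein-associated chaperone (r = 0.953), Cdkn2aipnl (0.946), Smim14 (0.946), Manf, a secreted factor of endoplasmic reticulum stress (0.944), and Fth1, the ferritin heavy chain (0.940). The median r over all those genes was 0.371. The other 9 members ran from Pkm (0.633, rank 859), Ldha (0.599, rank 1171) and Ldhb (0.487) through Hk1 (0.408), Slc2a1 (0.367), Slc2a3 (0.315) and Slc16a1 (0.238) to Pfkfb3 (-0.0403) and Slc16a7 (-0.291). The wildtype CA3 libraries behind the choice of Bsg are among the 39. Without them r was 0.949 for Nudc, 0.565 for Pkm and 0.523 for Ldha, beside a median of 0.328. These correlations describe libraries that share regions, groups, depth and composition trends. Bsg itself correlated at 0.663 with the excess of short over long genes of a library and at 0.540 with the excess of high over low GC genes. In the 24 libraries of the coIP experiment, r with Bsg was 0.920 for Nudc and 0.958 for Fth1, but 0.628 for Ldha and -0.0195 for Pkm.

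Slc16a1, the transporter MCT1, rose after ECL in DG of both genotypes. Wildtype DG controls held 57.6, 52.6, 47.6 and 56.1 CPM, and the 7 ECL libraries ran from 75 to 88.5 CPM (median 82.5). Every ECL library lay above every control. The log2 fold change was 0.57 ± 0.10 (edgeR, adjusted p = 0.00276), and 0.57 again without the library with CA3-like marker levels (adjusted p = 7.27e-04). In DG labelled Synpo-/- the 7 controls ran from 51.2 to 60.8 CPM (median 55.3) and the ECL libraries held 94.0, 87.6, 73.4 and 79.1 CPM. The groups did not overlap there either, at 0.54 ± 0.09 (adjusted p = 0.00107). CA3 labelled Synpo-/- had 49.3 to 79.0 CPM in controls and 57.2 to 78.4 CPM after ECL, and the difference was 0.07 ± 0.10. The lesion effects in DG and CA3 of that genotype differed by 0.45 ± 0.14 (interval 0.18 to 0.73), which did not pass the test by edgeR (adjusted p = 0.128). The genotypes' effects in DG differed by -0.07 ± 0.13, with an interval of -0.31 to 0.18.

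**Figure D3:**
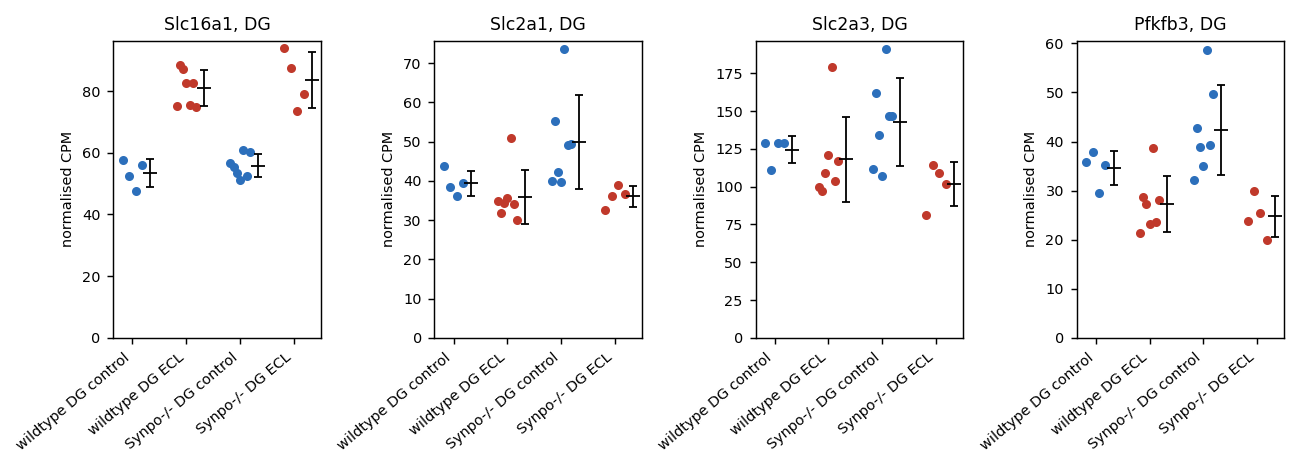
Normalised CPM of Slc16a1, Slc2a1, Slc2a3 and Pfkfb3 in each DG library (dots, blue for control and red for ECL), with the mean and SD of each group in black. Slc16a1 after ECL (73.4 to 94.0 CPM) lies above the controls (47.6 to 60.8 CPM) in both genotypes, and the high dot among the wildtype ECL libraries for the other 3 genes is the library with CA3-like marker levels.

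Slc16a7, the transporter MCT2 of neurons, was not called after ECL. Wildtype DG controls held 38.4, 31.2, 40.5 and 41.1 CPM and the ECL libraries 25.2 to 37.2 CPM (median 34.3). DG labelled Synpo-/- ran from 32.7 to 45.0 CPM in controls (median 39.3) and held 28.8, 34.1, 32.3 and 36.0 CPM after ECL. The groups overlapped in both genotypes, at -0.22 ± 0.12 in wildtype DG (edgeR, adjusted p = 0.213), or -0.23 without the library with CA3-like marker levels, and -0.30 ± 0.10 in DG labelled Synpo-/- (adjusted p = 0.0875).

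Slc2a1, the transporter GLUT1, fell in DG labelled Synpo-/-. The 7 controls ran from 39.8 to 73.5 CPM (median 49.1) and the ECL libraries held 32.5, 36.2, 39 and 36.7 CPM. The groups did not overlap, although the highest ECL library (39 CPM) lay close to the lowest control (39.8 CPM). The log2 fold change was -0.50 ± 0.14 (edgeR, adjusted p = 0.032), and the call was lost without any 1 of 6 of the 11 libraries, which include all 4 ECL libraries, with adjusted p from 0.0507 to 0.115. In wildtype DG the controls held 43.7, 38.4, 36.1 and 39.4 CPM, and the ECL libraries other than the one with CA3-like marker levels ran from 30.0 to 35.7 CPM, while that library held 50.9 CPM. The wildtype difference was -0.16 ± 0.13 with it and -0.27 without it (adjusted p = 0.0529). With the library kept, it was called by edgeR with the gene length trend removed (-0.38, adjusted p = 0.0304) and with length and GC trends removed (-0.48, adjusted p = 0.00844). The median over all genes was -0.14 in each of those fits, against 0.00 otherwise.

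Slc2a3, the transporter GLUT3, also fell in DG labelled Synpo-/-. Its controls ran from 107 to 191 CPM (median 147) and its ECL libraries held 81.1, 114, 109 and 102 CPM, so that 2 ECL libraries lay inside the control range. The difference was -0.53 ± 0.14 (edgeR, adjusted p = 0.0245), and it was lost without ECL replicate 1, 3 or 4 (adjusted p = 0.0592 to 0.103). Wildtype DG controls held 129, 111, 129 and 129 CPM. The wildtype ECL libraries ran from 97.0 to 179 CPM (median 109), with a difference of -0.11 ± 0.14, and -0.25 without the library with CA3-like marker levels (adjusted p = 0.0759).

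Pfkfb3, which makes the activator of phosphofructokinase, had the furthest fold change of the 10 genes in DG labelled Synpo-/-. Controls ran from 32.1 to 58.6 CPM (median 39.3) and ECL libraries held 23.8, 29.9, 25.5 and 19.9 CPM, below every control. It fell by 0.81 ± 0.15 on the log2 scale (edgeR, adjusted p = 0.00279), and the call held without each library in turn (-0.89 to -0.70). In wildtype DG the controls held 35.9, 37.8, 29.6 and 35.2 CPM and the ECL libraries 21.4 to 38.6 CPM (median 27.2). The difference was -0.37 ± 0.14 (adjusted p = 0.0847). The top value of 38.6 CPM was the library with CA3-like marker levels, and without it Pfkfb3 fell by 0.49 on the log2 scale (adjusted p = 0.00946). In CA3 labelled Synpo-/- Pfkfb3 held 25.9 to 46.8 CPM in controls and 25.8 to 44.3 CPM after ECL, at -0.03 ± 0.15. The difference between the DG and CA3 effects was -0.79 ± 0.23 (interval -1.24 to -0.35), which did not pass the test by edgeR (adjusted p = 0.0864) and did by DESeq2 (-0.81, adjusted p = 0.0218).

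Ldha, Ldhb, Hk1 and Pkm were not called after ECL in any tested region. In wildtype DG, Ldhb ran from 443 to 739 CPM in controls and from 573 to 856 CPM after ECL, at 0.37 ± 0.16, and at 0.32 without the library with CA3-like marker levels. Pkm ran from 291 to 364 CPM in controls and from 304 to 744 CPM after ECL, at 0.35 ± 0.20, and at 0.14 without that library. Ldha and Hk1 moved by 0.07 ± 0.18 and 0.19 ± 0.19 with that library and by -0.13 and -0.02 without it, so their sign rested on it. In DG labelled Synpo-/- the 4 differences lay between -0.30 (Ldha) and -0.04 (Ldhb). All 4 genes overlapped between control and ECL in both genotypes.

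Cell type markers moved with the DG lesion effects. In wildtype DG 12 of 12 microglia markers and 6 of 10 astrocyte markers were called higher, and 12 and 8 without the library with CA3-like marker levels. Summed microglia markers went from 557 to 746 CPM in controls to 1393 to 1722 CPM after ECL, and summed astrocyte markers from 4291 to 4833 CPM to 6560 to 8145 CPM. In DG labelled Synpo-/- 10 of 12 and 7 of 10 were called higher, with microglia sums of 679 to 1393 CPM in controls and 1453 to 1934 CPM after ECL. Of 10 endothelial markers, 2 were called lower in wildtype DG and 0 in DG labelled Synpo-/- (edgeR, 1 at an unadjusted p under 0.05). No listed marker was at 0 in these groups. Whether these cell types had a part in the values of Slc16a1, Slc2a1, Slc2a3 and Pfkfb3 was not tested.

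The genotypes did not differ detectably in DG. Between DG controls, 0 of 10 genes were called by edgeR or DESeq2, where 0.0166% of 24143 genes were called. An unadjusted p under 0.05 was reached by 3 of the 10 (Slc2a1, Ldhb and Pkm) and by 15.5% of all genes. The 10 differences, Synpo-/- against wildtype, were all positive and ran from 0.02 for Slc16a7 to 0.35 for Ldhb, with a median of 0.19. After ECL 0 of 10 were called by either tool, where 0.0166% of 24100 genes were called. An unadjusted p under 0.05 was reached by 0 of the 10 and by 3.56% of all genes. The differences ran from -0.33 to 0.02, and from -0.14 to 0.09 without the library with CA3-like marker levels, again with 0 calls by edgeR and 0 at an unadjusted p under 0.05. In the interaction of genotype with lesion in DG, 0 of 10 were called by either tool, where 0.00381% of 26245 genes were called. Of the 10, 2 had an unadjusted p under 0.05, as did 10.4% of all genes. They were Slc2a3 at -0.47 ± 0.22 and Pfkfb3 at -0.47 ± 0.21. Without that library these 2 stood at -0.34 and -0.37 and 0 of 10 had an unadjusted p under 0.05. These comparisons share their control libraries with the lesion comparisons.

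Regions were compared within the libraries labelled Synpo-/-, since wildtype CA3 entered no test. Between controls 4 of 10 genes were called, where 25.5% of 21408 genes were. Slc2a1 was higher in DG than in CA3, with 39.8 to 73.5 CPM (median 49.1) against 32.0 to 47.0 CPM (median 37.7), at 0.45 ± 0.12 (edgeR, adjusted p = 0.00956). Slc16a7 was higher too, with 32.7 to 45.0 CPM against 26.5 to 37.8 CPM, at 0.32 ± 0.10 (adjusted p = 0.030), a call that was lost by DESeq2 (0.26) and without any 1 of 5 of the 13 libraries. Hk1 was lower in DG, with 46.3 to 87.0 CPM (median 62.0) against 82.5 to 117 CPM (median 91.3), at -0.45 ± 0.11 (adjusted p = 0.00348). Pkm was lower at -0.36 ± 0.13 (adjusted p = 0.0471), and this was lost without any 1 of 8 of the 13 libraries. All 4 genes overlapped between the regions. Summed neuron markers ran from 3376 to 5167 CPM in these DG controls and from 6736 to 8499 CPM in the CA3 controls. In DG 3 of 6 neuron markers and 9 of 9 oligodendrocyte markers were called lower and 0 higher, while 4 of 4 granule cell markers were called higher. Whether these cell types had a part in the region differences was not tested.

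After ECL 2 of 10 genes were called between DG and CA3 labelled Synpo-/-, where 13.6% of 22767 genes were. Hk1 held 52.0, 64.7, 58.3 and 57.8 CPM in DG and 67.6 to 110.0 CPM in CA3 (median 90.4), without overlap, at -0.59 ± 0.14 (edgeR, adjusted p = 0.0105). Slc2a3 was lower in DG at -0.50 ± 0.16 (adjusted p = 0.0499), and the call was lost without any 1 of 8 of the 10 libraries. Slc2a1, called higher in DG among controls, stood at -0.14 ± 0.13 after ECL. In the interaction of region with lesion, 0 of 10 genes were called by edgeR, 3 had an unadjusted p under 0.05 (Slc16a1, Slc2a1 and Pfkfb3), and 1.12% of 25435 genes were called. DESeq2 called 2 of the 10, Pfkfb3 and Slc16a1 (0.44, adjusted p = 0.0469), where it called 677 of 16742 genes. Slc2a1 was at -0.56 ± 0.20 by edgeR and was called with the gene length trend removed (-0.64, adjusted p = 0.0476).

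The coIP comparison asks which of these transcripts were higher or lower in the pull-down with the synaptopodin antibody than in the lysate. In control wildtype cultures 4 of 10 genes were called between coIP and input, Slc16a1 and Hk1 as higher and Ldha and Ldhb as lower, where 55% of 18222 genes were called. In ECL wildtype cultures 3 of 10 were called, Hk1 as higher and Ldha and Ldhb as lower, where 58.3% of 18229 genes were. In cultures labelled Synpo-/-, which lack the antibody's target by label, 1 of 10 was called, Slc16a1 as higher, where 31.4% of 20892 genes were. The share of members called was below that of all genes in each of the 3 comparisons. Composition trends separated the fractions. Short genes stood above long ones by 0.29 to 0.54 (log2) in the wildtype inputs and by -0.74 to -0.23 in the wildtype coIP libraries, and by 0.40 to 0.42 and -0.23 to -0.11 in those labelled Synpo-/-.

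**Figure D4:**
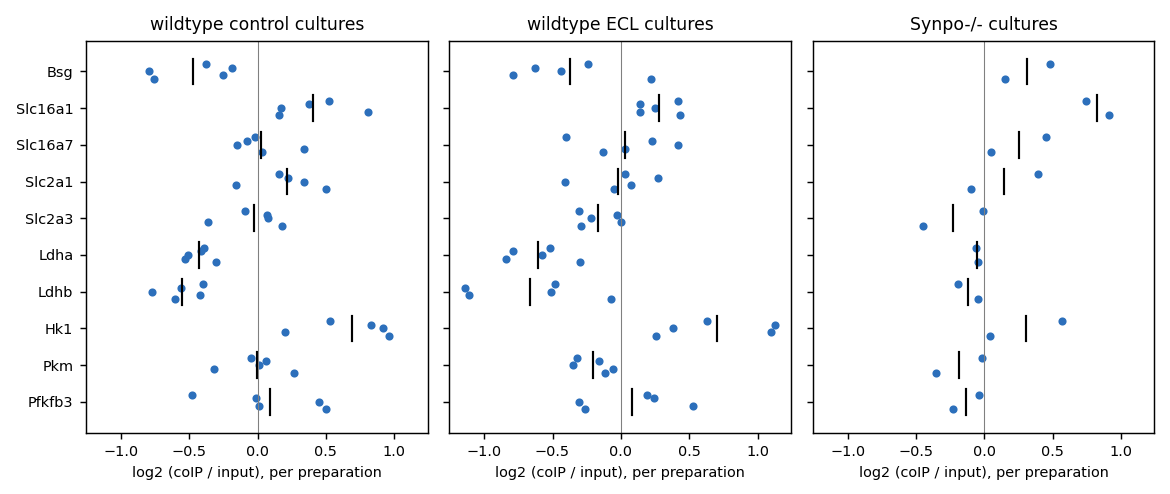
Log2 ratio of coIP to input for the 10 genes in each preparation (dots, Synpo-/- libraries paired by preparation name) with the mean (line), in control wildtype, ECL wildtype and Synpo-/- labelled cultures. Slc16a1 lies above 0 in each of the 12 preparations, at 0.14 to 0.91, and Hk1 as well, at 0.04 to 1.13.

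Slc16a1 was higher in coIP than in the input of the same preparation in 5 of 5 control pairs, 5 of 5 ECL pairs and 2 of 2 pairs labelled Synpo-/-. Control inputs held 46.4, 33.1, 29.5, 35.4 and 33.2 CPM and their coIP libraries 51.7, 58.0, 33.3, 46.0 and 47.6 CPM. The groups overlapped, and the difference was 0.43 ± 0.14 (edgeR, adjusted p = 0.0194), or 0.43 with the preparation as a block (adjusted p = 8.99e-04). Without input replicate 3, input replicate 5 or coIP replicate 2 it was 0.35 to 0.37 and was not called (adjusted p = 0.0535 to 0.0641). ECL inputs held 47.6, 30.4, 37.2, 30.8 and 38.6 CPM and their coIP libraries 64.0, 33.5, 44.1, 33.9 and 51.5 CPM, at 0.31 ± 0.17, which was called with the block (0.29, adjusted p = 0.0122). In cultures labelled Synpo-/- the inputs held 29.7 and 26.6 CPM and the coIP libraries 55.8 and 44.6 CPM, without overlap, at 0.80 ± 0.16 (adjusted p = 0.00284). The difference was called in libraries whose label says that synaptopodin is missing. The interaction of genotype with fraction was 0.42 ± 0.26, with an interval of -0.10 to 0.93.

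Hk1 was higher in coIP in 12 of 12 pairs, by either numbering of the Synpo-/- pairs. Control inputs held 136, 177, 149, 154 and 213 CPM and their coIP libraries 266, 203, 282, 273 and 307 CPM, at 0.70 ± 0.13 (edgeR, adjusted p = 3.66e-04). ECL inputs held 191, 126, 153, 147 and 114 CPM and their coIP libraries 229, 270.0, 198, 320.0 and 177 CPM, at 0.73 ± 0.17 (adjusted p = 0.0021). Only 1 coIP library in each state lay inside the input range. The inputs labelled Synpo-/- held 173 and 129 CPM and the coIP libraries 178 and 192 CPM, at 0.26 ± 0.15. Over the 24 libraries Hk1 correlated at -0.834 with the excess of short over long genes. With length and GC trends removed the wildtype differences were 0.20 in control and 0.19 in ECL cultures and neither was called (adjusted p = 0.096 and 0.207).

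Ldha and Ldhb were lower in coIP in 12 of 12 pairs each, though with the Synpo-/- libraries paired by the other numbering Ldhb was lower in 11 of 12. Control inputs held 1231, 1115, 943, 993 and 1067 CPM of Ldha and their coIP libraries 1001, 770.0, 662, 747 and 815 CPM, at -0.40 ± 0.11 (edgeR, adjusted p = 0.00602). ECL inputs held 880.0, 819, 846, 911 and 736 CPM and their coIP libraries 713, 456, 566, 528 and 513 CPM, without overlap, at -0.58 ± 0.11 (adjusted p = 5.55e-04). Ldhb differed by -0.53 ± 0.16 in control cultures (adjusted p = 0.0118) and by -0.59 ± 0.19 in ECL cultures (adjusted p = 0.0148). Neither gene was called in cultures labelled Synpo-/-, at -0.09 ± 0.13 for Ldha and -0.15 ± 0.14 for Ldhb. Ldhb has the shortest exonic sequence of the 10 genes, at 1570 bases. With the gene length trend removed it turned to 0.05 in both wildtype states, and Ldha stood at -0.23 in control cultures (adjusted p = 0.0978) and at -0.34 in ECL cultures (adjusted p = 0.0109).

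Bsg was lower in coIP than in input in 5 of 5 control pairs and 4 of 5 ECL pairs, and higher in 2 of 2 pairs labelled Synpo-/-. The control inputs held 1261, 1333, 996, 998 and 745 CPM and their coIP libraries 745, 1120, 574, 875 and 573 CPM, at -0.44 ± 0.19 (edgeR, adjusted p = 0.0584). With the preparation as a block the difference was -0.46 and was called (adjusted p = 2.06e-04), and in ECL cultures it was -0.36 (adjusted p = 0.0261) against -0.32 ± 0.47 without the block. With the gene length trend removed, the control difference was 0.06 (adjusted p = 0.757). The inputs labelled Synpo-/- held 865 and 763 CPM and the coIP libraries 959 and 1064 CPM, at 0.28 ± 0.14. The interaction of genotype with fraction was 0.77 ± 0.32 for Bsg (interval 0.13 to 1.40, adjusted p = 0.63). With the preparation as a block it was 0.79 ± 0.17 (edgeR, adjusted p = 0.058), not called, in a fit that called 61 of 20621 genes. In that interaction without the block 0 of 10 genes were called by either tool, and 1 had an unadjusted p under 0.05. Of all 20621 genes 0% were called, with 1511 at an unadjusted p under 0.05 and 60 called by DESeq2. In the interaction of lesion with fraction in wildtype cultures 0 of 10 were called by either tool, 0 had an unadjusted p under 0.05, and 0% of 19581 genes were called, with 434 at an unadjusted p under 0.05 and 0 called by DESeq2.

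The remaining 5 genes, Slc16a7, Slc2a1, Slc2a3, Pkm and Pfkfb3, were not called between coIP and input in any of the 3 kinds of culture. Slc2a1 came to 0.22 ± 0.11 in control wildtype cultures and was called with the block (0.23, adjusted p = 0.0289). Pkm, which ran from 1580 to 3126 CPM in this experiment, differed by 0.01 ± 0.09 in control and by -0.17 ± 0.15 in ECL cultures. Slc16a7 differed by 0.04 ± 0.11 and 0.06 ± 0.14, and turned to -0.39 in both states with the gene length trend removed.

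Whole-culture input gave a second view of the lesion, over all regions of the culture at once. Here 2 of 10 genes were called, Bsg and Ldha, both lower after ECL, where 5.61% of 17951 genes were called. The 5 control inputs held 1261, 1333, 996, 998 and 745 CPM of Bsg and the 5 ECL inputs 222, 157, 235, 456 and 751 CPM. Of the ECL inputs, 4 lay below every control and 1 lay just above the lowest control. Bsg fell by 1.55 ± 0.35 on the log2 scale (edgeR, adjusted p = 0.0197). The call was lost without ECL replicate 3 (-1.42, adjusted p = 0.0585) and without control replicate 2 (-1.46, adjusted p = 0.062), and leaving out each library gave -2.01 to -1.35. With length and GC trends removed it was -1.45 (adjusted p = 0.0224). The direction was opposite to that of the wildtype CA3 areas, in libraries made from other samples. Summed neuron markers ran from 7643 to 9097 CPM in control inputs and from 6573 to 7986 CPM in ECL inputs, and summed microglia markers from 1031 to 1636 CPM and from 1448 to 2366 CPM. Whether these had a part in the Bsg values was not tested.

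Ldha fell in input from 943 to 1231 CPM in controls to 736 to 911 CPM after ECL, without overlap, at -0.36 ± 0.08 (edgeR, adjusted p = 0.0205). The call was lost without ECL replicate 2, ECL replicate 3 or control replicate 2 (adjusted p = 0.0558 to 0.0652). Of the other 8 genes, 7 had negative differences, from -0.30 (Slc2a3 and Pfkfb3) to -0.08 (Slc16a7). Slc16a1 was at 0.05 ± 0.14, with 29.5 to 46.4 CPM in control and 30.4 to 47.6 CPM in ECL inputs, which overlapped. The coIP libraries of the same preparations gave 0 of 10 calls by edgeR, where 0.314% of 18449 genes were called. DESeq2 gave 1 call, Ldha (-0.52, adjusted p = 0.029), where it called 357 of 17553 genes. An unadjusted p under 0.05 by edgeR was reached by 5 of the 10 and by 12.2% of all genes. Bsg in coIP held 745, 1120, 574, 875 and 573 CPM in control and 259, 90.5, 173, 295 and 635 CPM in ECL cultures, at -1.41 ± 0.38 (edgeR, adjusted p = 0.143). Without ECL replicate 5, the library with 635 CPM, it was -1.90 and was called (adjusted p = 0.0187).

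The rest of the pathway was followed through 71 listed genes, which comprise other carriers and chaperones, other glucose transporters, other dehydrogenase subunits, other glycolytic enzymes, regulators, mitochondrial pyruvate entry and hypoxia-induced genes. In wildtype DG 3 of 66 tested genes rose after ECL and 1 fell, 6.06% of those listed against 12.2% of all genes. Without the library with CA3-like marker levels 3 rose and 4 fell, against 13.8% of all genes. Aldoc, the astrocytic aldolase, rose from 413 to 682 CPM in controls to 807 to 1382 CPM (0.88 ± 0.17, edgeR, adjusted p = 0.00542). Slc2a8 (0.63 ± 0.15) and Pdhb, a subunit of pyruvate dehydrogenase (0.54 ± 0.16), rose as well. Vegfa, a hypoxia-induced growth factor, fell from 26.4 to 43.5 CPM in controls to 13.1 to 22.4 CPM (-0.87 ± 0.16, adjusted p = 0.00382). Without that library the 4 genes stood at 0.78, 0.59, 0.41 and -0.86 in the same order and each was called. In DG labelled Synpo-/- 1 of 66 rose and 7 fell, 12.1% against 8.53% of all genes, and 5 of those that fell were among 12 hypoxia-induced genes. They include Vegfa (-0.86 ± 0.10, adjusted p = 1.10e-04), Adm, adrenomedullin (-0.95 ± 0.16), and Bnip3, a mitophagy receptor (-0.83 ± 0.15). Hk2, the inducible hexokinase, fell from 36.9 to 60.2 CPM to 24.6 to 33 CPM (-0.66 ± 0.12, adjusted p = 0.00352). The median over the 12 hypoxia-induced genes was -0.37 there and -0.04 in wildtype DG (-0.11 without the library with CA3-like marker levels), beside 0.01 and 0.00 over all genes. In CA3 labelled Synpo-/- 0 of 66 were called by edgeR and 4 had an unadjusted p under 0.05, and between the genotypes 0 were called, with 13 of 66 in DG controls and 1 of 67 in lesioned DG at an unadjusted p under 0.05. Of all genes, 7.27%, 15.5% and 3.56% had such a p in the same order.

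Between DG and CA3 controls labelled Synpo-/-, 13 of 66 listed genes were higher in DG and 17 lower, 45.5% against 25.5% of all genes. Vegfa was higher in DG (1.10 ± 0.11, edgeR, adjusted p = 4.60e-07), with 26.4 to 37.1 CPM against 12.4 to 19.8 CPM, and 8 of 12 hypoxia-induced genes were called higher there. The proton and inositol symporter gene Slc2a13 was also higher (1.31 ± 0.12). Dlat, a subunit of pyruvate dehydrogenase, was lower (-0.78 ± 0.08), and 6 of 19 tested glycolytic enzymes were lower with 2 higher. After ECL 2 of 67 were higher and 7 lower, 13.4% against 13.6% of all genes, among them Nptn, neuroplastin, a relative of basigin that also escorts lactate carriers (-0.64 ± 0.09). For Vegfa the region by lesion interaction was called (-1.10 ± 0.19, adjusted p = 0.00401), as 1 of 67 listed genes, against 1.12% of all genes.

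In control wildtype cultures 15 of 61 listed genes were higher in coIP than in input and 21 lower, in ECL wildtype cultures 8 and 21 of 61, and in cultures labelled Synpo-/- 8 and 13 of 65. The shares called were 59.0%, 47.5% and 32.3%, beside 55%, 58.3% and 31.4% of all genes. Mpc1, a subunit of the mitochondrial pyruvate carrier, was lower in all 3 (-1.37 ± 0.14, -1.50 ± 0.18 and -1.28 ± 0.15). Pgam1 was lower in control wildtype cultures (-0.86 ± 0.10) and in those labelled Synpo-/- (-0.84 ± 0.13). In whole-culture input after ECL 11 of 62 listed genes fell and 0 rose by edgeR, 17.7% against 5.61% of all genes. They include Pgam1 (-0.67 ± 0.11, adjusted p = 0.00353), Dlat (-0.59 ± 0.10), Adm (-0.68 ± 0.12) and Gpi1, the isomerase of glucose 6-phosphate (-0.40 ± 0.08). The median over those 62 was -0.18. In the coIP libraries 1 of 61 fell after ECL, against 0.314% of all genes, and it was Adm (-0.83 ± 0.15, edgeR, adjusted p = 0.032).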

How the data were processed

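Counts of 63 libraries were used, 39 regional and 24 of the coIP experiment. The authors trimmed reads (cutadapt 3.5), mapped them to mm10 (STAR 2.7.8a), kept libraries with sufficient unique mapping, and counted reads per gene without strand over GENCODE exons (featureCounts 2.0.1), with the tool versions taken from the submitters' processing notes. The deposited values are these raw counts for 55291 symbols, of which 107 stand for more than 1 annotated gene. No molecular identifiers were used, so the error was taken from replicates. Groups came from the labels. The total count per library sets the precision of low values.

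Normalised CPM used the TMM factors of each experiment. Each comparison was fitted on its own groups in edgeR 4.0.16 (R 4.3.3, limma 3.58.1) with TMM, filterByExpr, the quasi-likelihood test and Benjamini-Hochberg adjustment over all genes tested, with a threshold of 0.05, so a fitted fold change can differ slightly from the ratio of mean CPM. Alternatives kept the counts and, apart from the block, changed one choice at a time. Lowess trends of length or GC in each library (span 0.3, mean count above 50) were given to the fit as offsets. Others were DESeq2 1.42.0, RLE scaling, no count filter, and calls limited to a mean normalised count above 300. Further ones were a block for replicate number, one fit over a region or experiment, the longest transcript as length, and each library left out. The block kept only libraries whose replicate number occurred in each group it joined. Where groups differed in size it therefore also dropped libraries, among them the wildtype DG library with CA3-like marker levels. Removing length and GC trends in the wildtype CA3 values was added after seeing the data. The fits were tested on simulated data. Wildtype CA3 entered no test.

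The members and gene lists were chosen with earlier results of these data known. Named were all 10 members, up to 4 other pathway genes with the smallest p among the calls of a comparison, the 5 genes most correlated with Bsg, and marker lists. CoIP and input of one number come from one lysate, taken for the Synpo-/- libraries from the preparation name since a second numbering crosses them, and the deviations of the paired libraries from their group means correlated across genes at 0.189 to 0.442 in control pairs, 0.105 to 0.381 in ECL pairs and 0.0456 in those labelled Synpo-/-. In the other comparisons the libraries share a number, and the labels do not say whether it marks a pair. Blocked values are printed in the report where they change a call between coIP and input, and for Bsg in the interaction of genotype with fraction. Promoter windows came from RefSeq on GRCm38.p6 and matched the genome sequence.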

Additional observations from a re-analysis of the deposited data

Results flagged for a closer look

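In each of 100 sets of a gene and a group of 4 to 7 libraries, the gap between the highest or lowest library and its nearest neighbour was set against the whole range of the group (Dixon's criterion). Chance flags about 1 in 20 such groups, and 9 sets were flagged. Of these, 6 were the same library, wildtype DG ECL replicate 5, whose Prox1 and Grik4 levels lie in the range of the CA3 libraries. It held 50.9 CPM of Slc2a1 (the other 6 libraries 30.0 to 35.7), 179 CPM of Slc2a3 (97.0 to 121), 633 CPM of Ldha (273 to 384), 127 CPM of Hk1 (52.5 to 84.7), 744 CPM of Pkm (304 to 450) and 38.6 CPM of Pfkfb3 (21.4 to 28.8).

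The other 3 sets each involved a different library. Wildtype DG control replicate 2 held 111 CPM of Slc2a3 where the other 3 held 129. Ldhb was at 349 CPM in CA3 ECL replicate 6 labelled Synpo-/-, against 645 to 714 in the other 5. Pfkfb3 was at 68.0 CPM in control wildtype input replicate 5, against 34.4 to 42.4 in the other 4.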

How the results depend on the processing

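Of 1000 values of the 10 genes in tested comparisons under alternatives other than leaving out a library, 939 kept their direction and side of the threshold or stayed uncalled, 14 lost a call, 41 gained one and 6 turned sign with a call on either side. The 939 include 78 that turned sign without a call. Of 2020 values with 1 library left out, 38 lost a call, 16 gained one, 0 turned sign with a call and 112 turned sign without one. The counts of members called moved as follows, and the cause was not tested. Brackets give the calls over all genes tested in the same fit. Wildtype DG after ECL had 1 call (2886 of 23720). It had 3 with the length trend removed (2326 of 23720) or length and GC trends removed (1441 of 23720). With the replicate block, in fewer libraries, it had 2 (2657 of 22611). DG labelled Synpo-/- had 4 (1989 of 23310) and, with the block in fewer libraries, 2 (698 of 22531). Its DG against CA3 after ECL had 2 (3098 of 22767), and 4 with length (3349 of 22767). It had 5 with length and GC (3720 of 22767) and, with the block in fewer libraries, 5 (4406 of 21713). Wildtype coIP against input had 4 in control (10031 of 18222) and 3 in ECL cultures (10620 of 18229). With the block these were 6 (11393 of 18222) and 5 (11376 of 18229). CoIP labelled Synpo-/- had 1 (6567 of 20892), and 2 with the length trend removed (5871 of 20892) or length and GC trends removed (5790 of 20892). The lesion had 2 calls in input (1007 of 17951), and 1 with the block (673 of 17951). In coIP it had 0 (58 of 18449), and 1 by DESeq2 (357 of 17553) and with no filter (239 of 35397). The region by lesion interaction had 0, and 2 by DESeq2 and with either trend removal and 1 with the block. The genotype by fraction interaction had 0 (0 of 20621), and 1 with no filter (55 of 37534). Bsg in wildtype CA3 moved from 1.24 to 0.97 with length and 0.88 with length and GC removed. Between coIP and input, removing the length trend turned Slc16a7 to -0.39 in control and in ECL cultures and Ldhb to 0.05 in both, and removing length and GC turned Slc16a7 to -0.25 and Pkm to -0.22 in control cultures.

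With 1 library left out, member counts ranged from 1 to 2 in wildtype DG, 2 to 5 in DG labelled Synpo-/-, 2 to 4 and 1 to 5 between its regions in controls and after ECL, 3 to 4 in control coIP, 3 to 3 in ECL coIP, 1 to 2 in coIP labelled Synpo-/-, 0 to 2 for the lesion in input and 0 to 1 in coIP, and stayed at 0 to 0 in the other 7 tested comparisons. Bsg in wildtype CA3 ranged from 1.13 to 1.29.

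Over all genes, wildtype DG had 2886 calls, 4305 by DESeq2 (54.8% higher) and 1441 with length and GC removed, and the median of all genes moved to -0.14 under either trend removal and to -0.26 with no filter. DG labelled Synpo-/- had 1989 and 698 with the block, and CA3 had 16 and 25 to 86 by DESeq2, with no filter, with the block and with the trends removed. DG controls between genotypes had 4, and 259 by DESeq2 and 58 with no filter, and lesioned DG 4, and 12 and 7. Region by lesion had 284, and 677 by DESeq2 and 478 with the block. The input lesion had 1007, and 1676 by DESeq2 and 673 with the block, and the coIP lesion 58, and 357 by DESeq2, 239 with no filter and 1 with the block. Genotype by fraction had 0, and 60 by DESeq2, 55 with no filter and 61 with the block. Depth limits counts of low genes. Outside the coIP pairs, libraries of the same replicate number correlated at -0.254 to 0.540, and the labels do not say whether the number marks a pair. Where groups differed in size, the block also dropped libraries without a same-numbered partner, so a change cannot be put down to the block alone. In these comparisons Pfkfb3 with the block stood at -0.52 in wildtype DG (adjusted p = 0.0214) and 0.31 between control regions (0.0365). It stood at -0.57 between lesioned regions (0.0171) and -0.87 in the region by lesion interaction (0.0247). Each was called, as were Ldha (-0.56, 0.00761) and Pkm (-0.56, 0.00467) between lesioned regions. Calls ended for Slc2a1 (-0.35, 0.141) and Slc2a3 (-0.40, 0.0831) in DG labelled Synpo-/- and for Ldha in input (-0.36, 0.0569). These values are from edgeR with the block, which otherwise changed calls of members only between coIP and input, as given in the report.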
